A study of Brassica rapa subsp. pekinensis with 2 samples.

Results

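The miRNAs described are the 114 mature sequences of 21 nt that start with U and that the authors named with PC, the mark they gave to miRNAs predicted from hairpins of the Chinese cabbage genome. They were chosen by name, length and first base alone, and their reads took no part in the choice. They are 114 of 1220 miRNA names in the table, of 595 PC-named names and of 260 PC-named names of 21 nt, of which 146 start with another base. Small RNA was sequenced from 1 ‘Ant’ library and 1 ‘Mix’ library of the double haploid Chinese cabbage line ‘FT’. ‘Ant’ was made from anthers stripped from flower buds of different sizes, so that stages are pooled, and ‘Mix’ was made from root, stem and leaf of whole plants with 4 true leaves. Cold treatment at 4 °C for 20 days is given in the labels for both and in the study's methods for the flowering plants. No value has a replicate, so every comparison is between these 2 libraries and not between the conditions.

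Plant miRNAs are cut by a Dicer-like enzyme from both arms of a folded transcript, as a duplex with short 3′ overhangs, and 1 strand is kept by an Argonaute protein. In Arabidopsis, AGO1 prefers small RNAs that start with U. The bases near the 5′ end, called the seed here, are only a part of those that pair with the target mRNA. Many miRNAs found in only a few related plants arose from inverted duplications of genes, fold into long hairpins and are little expressed. The 5p or 3p in a name gives the arm of the hairpin. The expression data used here give no target or function for the 114 names. The study predicted target genes for the miRNAs that it called different between ‘Ant’ and ‘Mix’. Those predictions were not used here, so the roles of the 114 names are not described.

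The sequences below are the members on which the results turn, written 5′ to 3′ as DNA with bases 2 to 8 in capitals. The first set holds 4 of the 5 members with most reads in ‘Mix’, with the opposite arm of the first one, and the fifth of them, PC-3p-2236_580, stands in the second set beside the members it resembles.
PC-3p-268_4596: tTGTGGAAccgtgtgaatacc
PC-5p-156972_12: tGTTCACActgttccacaacg
PC-5p-1336_912: tTACAATTtttgtggaatccc
PC-3p-4602_319: tTGTTCACaattgcatagtcc
PC-3p-11027_157: tTGTCCTGtgggaatgctgtt
The second set holds 4 members that resemble each other, followed by a form of Brassica oleracea miR9409 in the table that resembles them.
PC-3p-2236_580: tTGTTCATcacttcatttccc
PC-3p-288684_7: tTGTTCATcactccatttacc
PC-3p-1165_1017: tTTTGTTCattactccatttc
PC-3p-139733_13: tTTTGTTCatcactccatttc
bol-miR9409_R-1_2ss15GC21TC: tTTTGTTCatgactccatttc
The third set holds members that were higher in ‘Ant’, of which the first 4 had at most 1 read in ‘Mix’.
PC-5p-26053_73: tCTTCTCActgtcgcaagaag
PC-5p-46180_41: tTAAAATAatatattgttgat
PC-3p-72183_26: tCAAAAACtaactcgaagatc
PC-5p-149015_12: tCAACTGTttttactatatcc
PC-5p-1815_688: tAGGTTCCcttaacttttaac
PC-5p-12419_142: tTTCAACAaagctaaagatct
The fourth set holds both arms of 2 hairpins on which each arm gave a member.
PC-5p-34355_55: tTCCATCGgtttgaggtccat
PC-3p-67670_28: tGGACCTCaaaccgatggaat
PC-5p-21017_89: tTAAGCGTagggtcccttaac
PC-3p-18129_101: tTAAGGGAccctacgcttaag

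Of the 114 members, 52 were called higher and 9 lower in ‘Ant’ than in ‘Mix’, which is 45.6% and 7.89% of them. Over all 1220 names, 27.1% were called higher and 20.9% lower, so members were called higher more often and lower less often than names in general, as a description of these libraries. A call required p of at most 0.05 both by chi-square (Pearson, no continuity correction) and by Fisher's exact test (two-sided) on normalized reads against the sum over names, and an absolute log2 ratio above 1. In either direction 61 members were called, against 48% of all names. All names together held 1676768 reads in ‘Ant’ and 1657860 in ‘Mix’, and the factors of the authors were 0.984 for ‘Ant’ and 1.02 for ‘Mix’. Where 0 reads were listed, as many as 3 could have been missed (0.000179% of the name reads in ‘Ant’ and 0.000181% in ‘Mix’), and a ratio against 0 reads is given as a bound with 3 reads in place of 0. Such a bound takes the reads of the other library as counted, and the 95% interval allows a smaller change. With 1 to 3 reads in a library, the ratio of the reads as counted is given with its interval, and medians over lists and the order of members use values with 3 in place of fewer reads. The 95% intervals reflect counting error alone and treat reads as independent. Reads without molecular identifiers are not independent molecules, so the intervals can be too narrow. In tissue libraries of this kind, fewer cells of a type and less RNA per cell cannot be told apart. The label of the anther library was checked with miR845, which is linked to pollen in Arabidopsis. Its 3 sequences had 11214 reads in ‘Ant’ against 95 in ‘Mix’, and all 3 were called higher in ‘Ant’, while no list of markers was used for the organs of ‘Mix’.

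**Figure D1:**
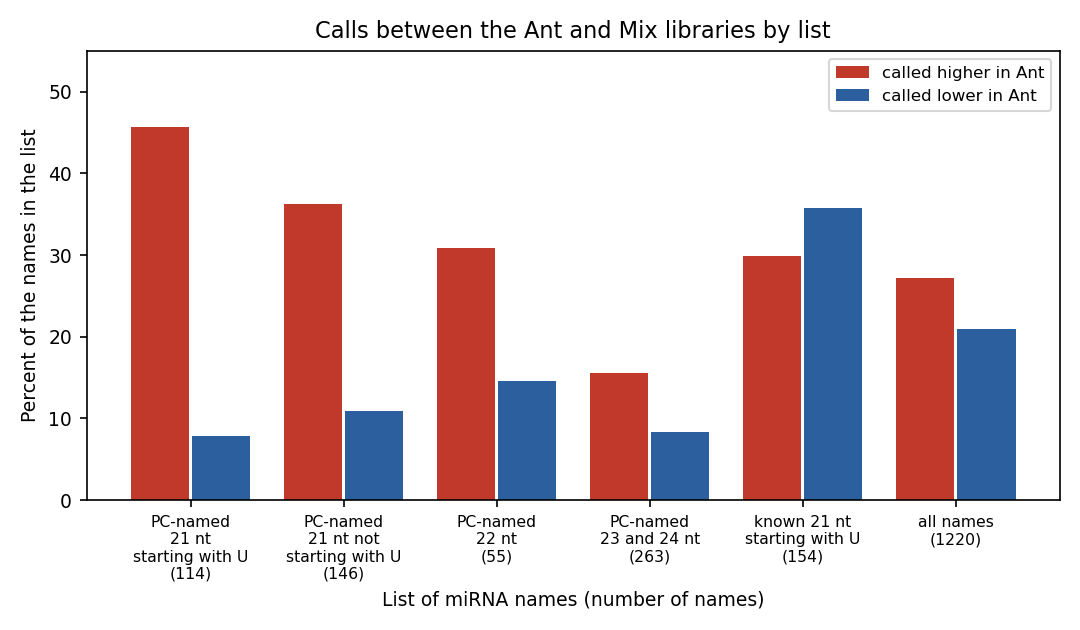
Percent of the names in 6 lists that were called higher (red) or lower (blue) in the ‘Ant’ library than in the ‘Mix’ library, with the number of names under each list. The members, at the left, were called higher in 45.6% and lower in 7.89%, against 27.1% and 20.9% of all names.

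The other 4 lists showed smaller shares of higher calls. PC-named 21-nt miRNAs that start with another base had 53 higher and 16 lower calls among 146 names, or 36.3% and 11.0%. Known 21-nt miRNAs that start with U had 46 higher and 55 lower calls among 154 names, or 29.9% and 35.7%. PC-named sequences of 23 and 24 nt had 41 higher and 22 lower calls among 263 names. The median log2 ratio of ‘Ant’ to ‘Mix’ was 0.99 for the members, 0.59 for the PC-named 21-nt miRNAs with another first base, 0.41 for the 55 PC-named 22-nt miRNAs, 0.16 for the PC-named sequences of 23 and 24 nt and -0.05 both for the known 21-nt miRNAs with a first U and for all names. No test was made between lists.

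The calls depended on depth. Members had a median of 13.25 reads in ‘Ant’ against 5.0 in ‘Mix’, and 33 of them had fewer than 10 reads in the library with more. Of those 33, 5 were called higher and 0 lower by both tests, or 15.2% and 0%, against 6.72% and 2.42% of the 372 names of that depth. Of the 68 members with 10 to under 100 reads in the higher library, 39 were called higher and 4 lower, or 57.4% and 5.88%, against 37.9% and 20.7% of the 536 names of that depth. All 13 members with 100 reads or more were called, 8 higher and 5 lower, while 33.0% of the 312 names of that depth were called higher and 43.3% lower. PC-named 21-nt miRNAs with another first base also had many higher calls at these depths. With 10 to under 100 reads, 53.2% of 77 were called higher and 14.3% lower. With 100 reads or more, 53.3% of 15 were called higher and 26.7% lower. With fewer than 10 reads, 7.41% of 54 were called higher and 1.85% lower. The 11 members with at most 3 reads in both libraries are given no ratio of their own and enter the medians at the floor.

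**Figure D2:**
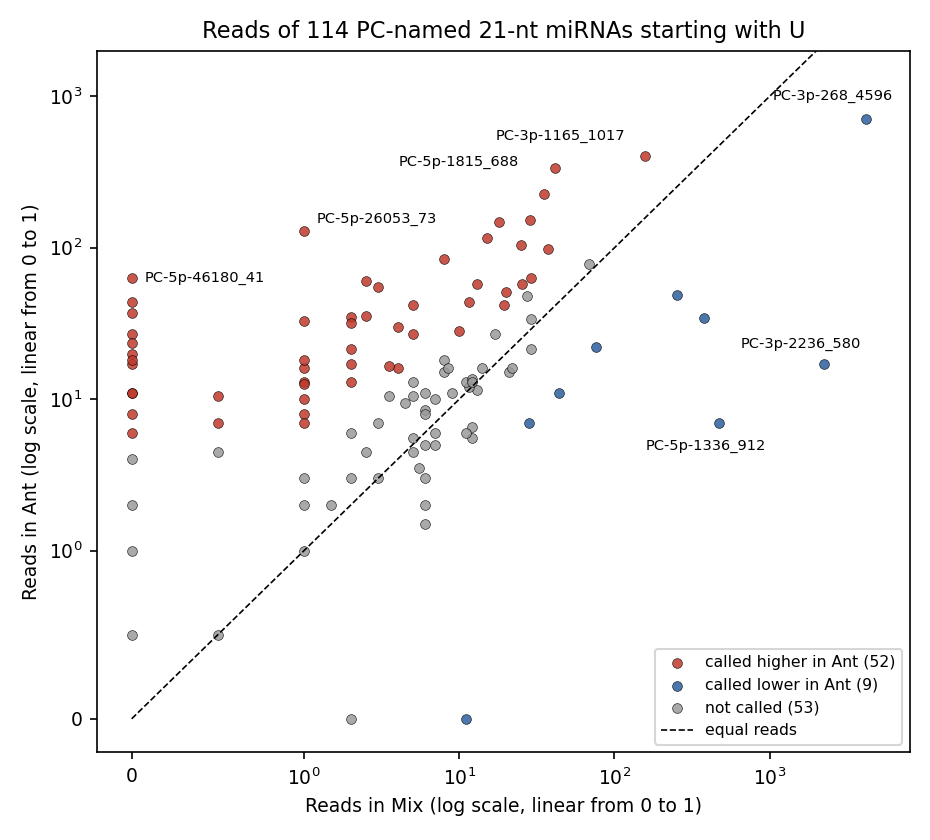
Reads of each of the 114 members in ‘Ant’ (vertical) and ‘Mix’ (horizontal), both on log scales that are linear from 0 to 1, with points coloured by call. The 52 members called higher lie above the line of equal reads, mostly under 100 reads, and PC-3p-268_4596 and PC-3p-2236_580 lie far to the right with 4176 and 2229 reads in ‘Mix’.

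Summed reads ran against the count of calls. The members held 4373 reads in ‘Ant’, or 0.261% of all name reads (Wilson interval 0.253% to 0.269%), and 8683.5 reads in ‘Mix’, or 0.524% (0.513% to 0.535%). This order rested on few members. PC-3p-268_4596 alone held 16.3% of the member reads in ‘Ant’ and 48.1% of those in ‘Mix’, and the 3 members with most reads in ‘Mix’ held 79.2% of the member reads there. Without these 3 members the sum was 3638 reads in ‘Ant’ against 1806.5 in ‘Mix’. More normalized reads in ‘Ant’ were found for 86 members and more in ‘Mix’ for 28.

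PC-3p-268_4596 had the most reads of any member in both libraries, with 711 reads in ‘Ant’ against 4176 in ‘Mix’, and was lower in ‘Ant’ (log2 ratio -2.60, interval -2.72 to -2.48). Its hairpin lies on chromosome A06 from 674145 to 674320 on the plus strand, in a genome build not given in the sources used here. The opposite arm is also a member. PC-5p-156972_12 had 7 reads in ‘Ant’ against 28 in ‘Mix’ and was lower as well (-2.05, -3.49 to -0.82), although not by edgeR's exact test at an assumed coefficient of variation of 0.4 (p = 0.0684). Of the reads on both arms, this 5p sequence held 0.975% in ‘Ant’ (0.473% to 1.999%) and 0.666% in ‘Mix’ (0.461% to 0.961%), so the 3p sequence dominated in each library and the intervals of the shares overlap.

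PC-3p-2236_580 showed the largest decrease among the members, with 17 reads in ‘Ant’ against 2229 in ‘Mix’ (log2 ratio -7.08, interval -7.86 to -6.40). It lies on chromosome A10, from 9751138 to 9751362 on the plus strand. The sequence on its opposite arm, PC-5p-34876_55, which starts with G and is not a member, had 33 reads in ‘Ant’ against 60 in ‘Mix’ and was not called (-0.91, -1.57 to -0.27). The arms therefore differed in their change. The 3p sequence held 34.0% of the reads of both arms in ‘Ant’ (22.4% to 47.8%) and 97.4% in ‘Mix’ (96.6% to 98.0%), and these intervals do not overlap.

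PC-5p-1336_912 followed with 7 reads in ‘Ant’ against 472 in ‘Mix’ (log2 ratio -6.12, -7.44 to -5.07). Its sequence differs from its precursor, on chromosome A06 from 27885157 to 27885317, at 1 base. PC-3p-4602_319 had 34.5 reads in ‘Ant’ against 378 in ‘Mix’ (-3.50, -4.02 to -2.98), and its opposite arm PC-5p-36549_52 was also lower, with 11.5 reads in ‘Ant’ against 51 in ‘Mix’. PC-3p-11027_157, from the hairpin with the highest GC among the lower members at 51.5%, had 48.5 reads in ‘Ant’ against 252 in ‘Mix’ (-2.42, -2.88 to -1.96). These 5 members with 252 reads or more in ‘Mix’ were the 5 with most reads there, and each was lower in ‘Ant’.

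The other lower members had few reads. PC-5p-488936_4 was listed at 0 in ‘Ant’ and had 11 reads in ‘Mix’, at least 3.78-fold lower (upper limit of the log2 interval -1.37). PC-5p-1411169_2 was the only other member listed at 0 in ‘Ant’, and its 2 reads in ‘Mix’ are under the limit that a count of 0 allows. The remaining 2 lower members, named after their values were seen, were PC-3p-171710_11 (22 reads in ‘Ant’ against 76 in ‘Mix’) and PC-3p-89717_21 (11 reads in ‘Ant’ against 44 in ‘Mix’). Lower members had a median of 17 reads in ‘Ant’ against 252 in ‘Mix’.

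The 52 higher members had a median of 31 reads in ‘Ant’ against 2 in ‘Mix’, and 22 of them were 5p and 30 were 3p. Their log2 ratio had a median of 2.38 on the floored reads. Most of them were little read, since 44 had fewer than 100 reads and 19 fewer than 20 reads in ‘Ant’. Together they held 2958 reads in ‘Ant’ against 544.5 in ‘Mix’.

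PC-3p-1165_1017, PC-5p-1815_688, PC-3p-18129_101 and PC-5p-12419_142 were, after PC-3p-268_4596, the members with most reads in ‘Ant’, and all 4 were higher there. PC-3p-1165_1017 had 401.5 reads in ‘Ant’ against 158 in ‘Mix’ (log2 ratio 1.30, interval 1.03 to 1.58), and edgeR's exact test at an assumed coefficient of variation of 0.4 did not call it (p = 0.131). PC-5p-1815_688 had 335.5 reads in ‘Ant’ against 41.5 in ‘Mix’ (2.97, 2.49 to 3.45). The intervals of these 2 members do not overlap, so that the increase was the larger for PC-5p-1815_688. PC-3p-18129_101 had 225 reads in ‘Ant’ against 35 in ‘Mix’ (2.64, 2.12 to 3.20), and PC-5p-12419_142 had 152 reads in ‘Ant’ against 28.5 in ‘Mix’ (2.37, 1.76 to 2.97), and their intervals overlap each other and that of PC-5p-1815_688.

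**Figure D3:**
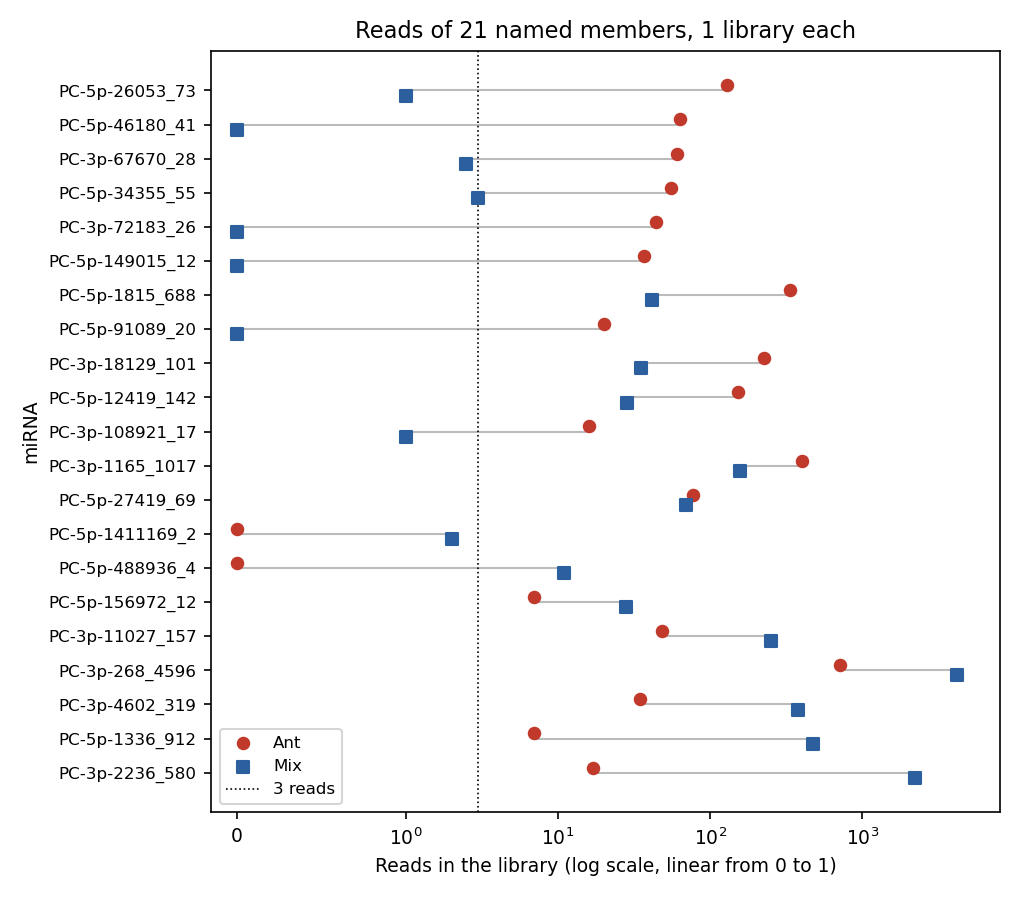
Reads of 21 named members in the ‘Ant’ library (red circles) and the ‘Mix’ library (blue squares), on a log scale that is linear from 0 to 1, ordered by log2 ratio with the highest at the top. The dotted line marks 3 reads, the most that a count of 0 allows, and 1 value stands for each library, so there are no error bars.

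The largest increases were found in members with 3 reads or fewer in ‘Mix’. PC-5p-26053_73 had 129 reads in ‘Ant’ against 1 in ‘Mix’ (log2 ratio 6.96, interval 4.46 to 12.28), and its hairpin lies on chromosome A02 from 9245235 to 9245479 on the plus strand. Its bases 2 to 8 are also found in a known sequence of the table, which holds for 5 of the 114 members. PC-5p-46180_41 had 63 reads in ‘Ant’ against 0 in ‘Mix’, an increase of at least 20.3-fold. With 0 reads in ‘Mix’ as well, PC-3p-72183_26 had 44 reads in ‘Ant’ (at least 14.2-fold) and PC-5p-149015_12 had 37 (at least 11.9-fold). The lower limits of the log2 intervals of these 3 members were 4.01, 3.47 and 3.21. These 3 were the most read of 16 members listed at 0 in ‘Mix’, which had 0.5 to 63 reads in ‘Ant’ and of which 12 were called. A count of 0 in ‘Mix’ was found for 14.0% of members and 8.69% of all names, and a count of 0 in ‘Ant’ for 1.75% of members and 6.72% of all names. PC-named 21-nt miRNAs with another first base were at 0 in ‘Mix’ in 17.1% of names and PC-named 22-nt miRNAs in 14.5%.

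Some members with many reads in both libraries were not called. PC-5p-27419_69 had 77.5 reads in ‘Ant’ against 69 in ‘Mix’ and was not called (log2 ratio 0.12, interval -0.35 to 0.62). Of the 34 members with at least 10 reads in both libraries, 21 were called, 15 higher and 6 lower. Over all names with as many reads, 123 were called higher and 150 lower, and their share of such names was not computed. The 53 members without a call held 557 reads in ‘Ant’ against 473 in ‘Mix’.

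The second set of sequences printed above shows 4 similar members with unlike changes. PC-3p-1165_1017 and PC-3p-139733_13 differ at 1 base and share bases 2 to 8. PC-3p-2236_580 and PC-3p-288684_7 differ from each other at 2 bases and share another run of bases 2 to 8. When PC-3p-139733_13 is shifted by 2 nt, it differs from PC-3p-2236_580 at 1 base, and from PC-3p-288684_7 at 1 base. PC-3p-1165_1017 and PC-3p-139733_13 each differ at 1 base from bol-miR9409_R-1_2ss15GC21TC. With shifts of up to 2 nt, the only ones searched, none of the 114 members is nearer to a known sequence. At a larger shift, the end of bol-MIR9409-p3_2ss13GC17GT_2 equals the first bases of PC-3p-2236_580 without a mismatch.

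PC-3p-1165_1017 was higher and PC-3p-2236_580 lower in ‘Ant’, as given above. PC-3p-139733_13 had 6.5 reads in ‘Ant’ against 12 in ‘Mix’ and was not called (log2 ratio -0.93, interval -2.41 to 0.64). PC-3p-288684_7 had 8.5 reads in ‘Ant’ against 6 in ‘Mix’ and was not called (0.46, -1.11 to 2.31). The known form bol-miR9409_R-1_2ss15GC21TC had 6 reads in ‘Ant’ against 3 in ‘Mix’ and was not called (0.95, -1.27 to 3.58). Other listed miR9409 forms also had unlike changes. Both bol-MIR9409-p3_2ss13GC17GT_1 and bol-MIR9409-p3_2ss13GC17GT_2 had 0 reads in ‘Ant’ against 11.5 in ‘Mix’ and were called lower. In contrast, bol-miR9409_L-1_2ss15GC21TC had 10 reads in ‘Ant’ against 0 in ‘Mix’ and was called higher. Finally, bol-miR9409_L-1 had 5 reads in ‘Ant’ against 5.5 in ‘Mix’ and was not called.

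Shared runs of bases 2 to 8 were otherwise rare. The 114 members have 111 different runs of bases 2 to 8, and 3 runs are shared by 2 members each. The third shared run joins PC-3p-108921_17, with 16 reads in ‘Ant’ against 1 in ‘Mix’ (log2 ratio 3.95, interval 1.27 to 9.34), to PC-5p-788216_3, with 3 reads in ‘Ant’ against 2 in ‘Mix’. Only 6 members lie within 3 mismatches of a known sequence when shifts of up to 2 nt are allowed. PC-5p-263001_7 and PC-5p-294507_7, named after their values were seen, share 20 of their bases at a shift of 1 nt and come from chromosomes A06 and A07. They had 5 and 5.5 reads in ‘Ant’ and 7 and 12 reads in ‘Mix’, and neither was called. Other similar members were also named after their values were seen. PC-5p-243646_8 and PC-5p-30929_62 share a run of 18 bases. PC-5p-21017_89 and PC-5p-53088_36, both called higher, differ at 2 bases when shifted by 2 nt. PC-5p-1336_912 and PC-3p-2541612_2 share 16 bases as reverse complements, and their records overlap on opposite strands of chromosome A06.

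An opposite arm on a precursor record with the same start, end and strand was listed for 88 members, and 26 members had none. Records with other ends were not paired. PC-3p-136228_13 is therefore among the 26, although its record lies inside that of PC-5p-27419_69 on chromosome A01, on the same strand. The 88 members make 78 pairs of arms, of which 12 have a member on each arm. In the 66 pairs with 1 member, the member had more reads than the other arm in 35 pairs in ‘Ant’ and in 28 pairs in ‘Mix’, and the other arm had more in 29 pairs in ‘Ant’ and in 34 pairs in ‘Mix’. Both arms were called in 23 pairs, 20 higher on both arms and 3 lower on both, and in 0 pairs were the arms called in opposite ways. The same counts for pairs without a member were not computed, so these are a description of the 78 pairs alone. Pairs of arms are not independent, because both come from 1 transcript. Among 63 pairs with more than 3 reads in a library for each arm, the log2 ratios of both arms were above 0 in 42 pairs, below 0 in 9 and on opposite sides of 0 in 12.

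Hairpins with a member on each arm include that of PC-5p-34355_55 and PC-3p-67670_28, on chromosome A02 from 27063600 to 27063788. PC-5p-34355_55 had 55 reads in ‘Ant’ against 3 in ‘Mix’ (log2 ratio 4.15, interval 2.53 to 6.47). PC-3p-67670_28 had 60.5 reads in ‘Ant’ against 2.5 in ‘Mix’ (4.55, 2.68 to 6.62). The arms were about equally read in ‘Ant’, where the 5p arm held 47.6% of their reads (38.6% to 56.4%). They share a run of 20 bases as reverse complements, as do PC-5p-21017_89 and PC-3p-18129_101 on chromosome A04, from 12611670 to 12611849. PC-5p-21017_89 had 105 reads in ‘Ant’ against 25 in ‘Mix’ (2.02, 1.38 to 2.72), so both arms of this hairpin were higher as well.

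In some pairs the arms changed by unlike amounts. PC-5p-1815_688 held 94.5% of the reads of its pair in ‘Ant’ (91.5% to 96.3%) and 69.2% in ‘Mix’ (56.4% to 79.1%). Its opposite arm, the 24-nt sequence PC-3p-398849_5, had 19.5 reads in ‘Ant’ against 18.5 in ‘Mix’ and was not called. PC-3p-72755_26, named after its values were seen, had 84.5 reads in ‘Ant’ against 8 in ‘Mix’, and its opposite arm PC-5p-7382_217 had 309 reads in ‘Ant’ against 6 in ‘Mix’. Its share of the pair was 21.5% in ‘Ant’ (17.8% to 25.9%) and 57.1% in ‘Mix’ (32.6% to 78.6%). For PC-5p-12419_142 the share differed by less than its error, with 72.2% in ‘Ant’ (65.6% to 77.7%) and 72.2% in ‘Mix’ (57.2% to 83.9%).

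The opposite arm had 21 nt in 47 pairs, 24 nt in 18, 22 nt in 9, 23 nt in 3 and 20 nt in 1. In the hairpins folded by the authors, 18 of the 47 pairs with 21 nt on both arms had 3′ overhangs of 2 nt at both ends, the overhang that Dicer enzymes leave. The others had overhangs of 1 nt in 11 pairs, 3 nt in 6 and 4 nt in 3, blunt ends in 3 and recessed 3′ ends in 6. PC-5p-156972_12 and PC-3p-268_4596 are a pair with 2 nt at both ends and 18 paired bases. PC-3p-2236_580 had 1 nt and PC-3p-1165_1017 had 3 nt, so these pairs differ in geometry.

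**Figure D4:**
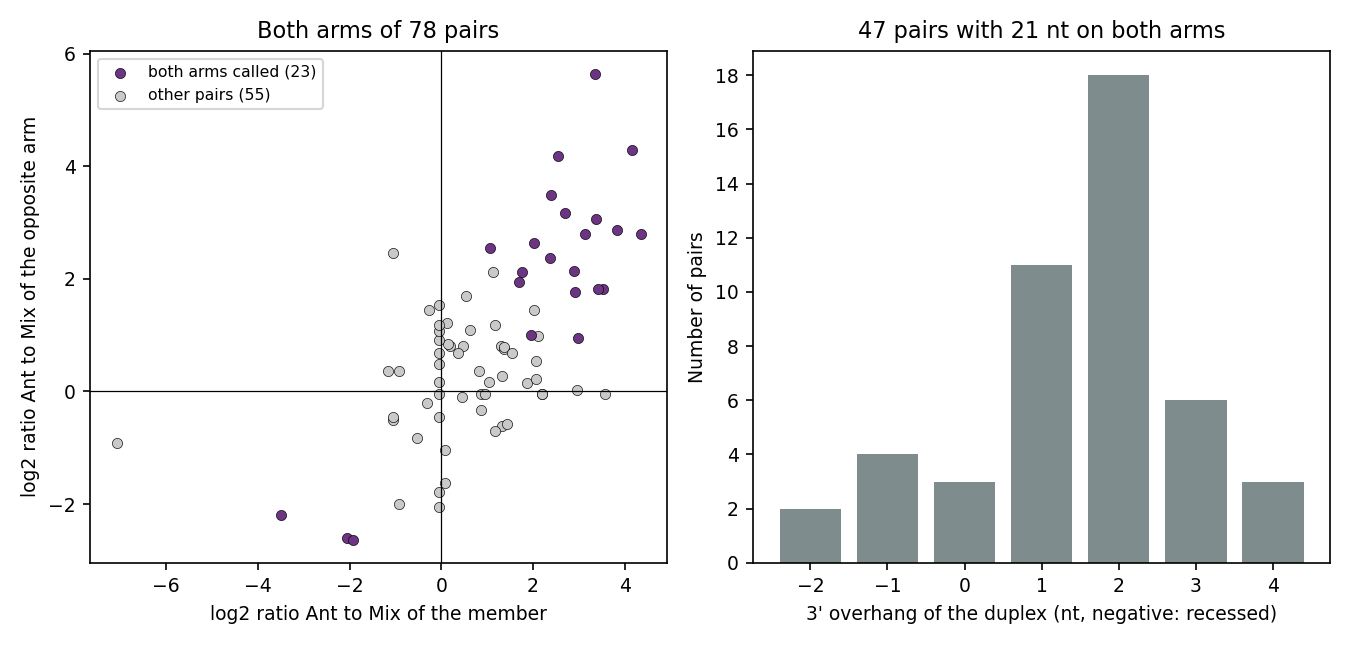
Left, log2 ratio of ‘Ant’ to ‘Mix’ of the opposite arm (vertical) against that of the member (horizontal) for 78 pairs of arms, with values under 3 reads set to 3 and the 23 pairs with both arms called in purple. Right, number of pairs by 3′ overhang for the 47 pairs with 21 nt on both arms, with 18 pairs at 2 nt.

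For names with several precursor records, the median over the records stands for the name. The precursors of the members were poor in GC, with a median of 30.6% (13.3% to 53.9%) against 35.6% over all names. Their hairpins had a median length of 143 nt (85 to 205.5 nt), and the median over all names was also 143 nt. The median folding energy was -74.5 kcal/mol (-194.4 to -37.1). The score MFEI, which divides the energy per length by the GC percent, had a median of 1.5 (0.9 to 2.6). Its length is that of the whole region from start to end, to which the hairpin positions given above also refer. This region can be longer than the hairpin, as for PC-3p-268_4596 with 176 nt against 129 nt. Known 21-nt miRNAs that start with U had a median length of 134 nt, GC of 38.7%, energy of -56.6 kcal/mol and MFEI of 1.05. PC-named 21-nt miRNAs with another first base were close to the members, with 149.5 nt, 31.1% GC, -81.8 kcal/mol and MFEI of 1.5. MFEI was at least 0.9 for every member, and PC-named sequences of all the other lists also had a minimum of 0.9. The known 21-nt miRNAs that start with U reached down to 0.4. Whether a limit of 0.9 in the naming makes the MFEI of members and known miRNAs differ was not tested. Energies computed again with RNAfold differed from those of the authors by at most 2 kcal/mol in 121 of 133 records of the members.

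**Figure D5:**
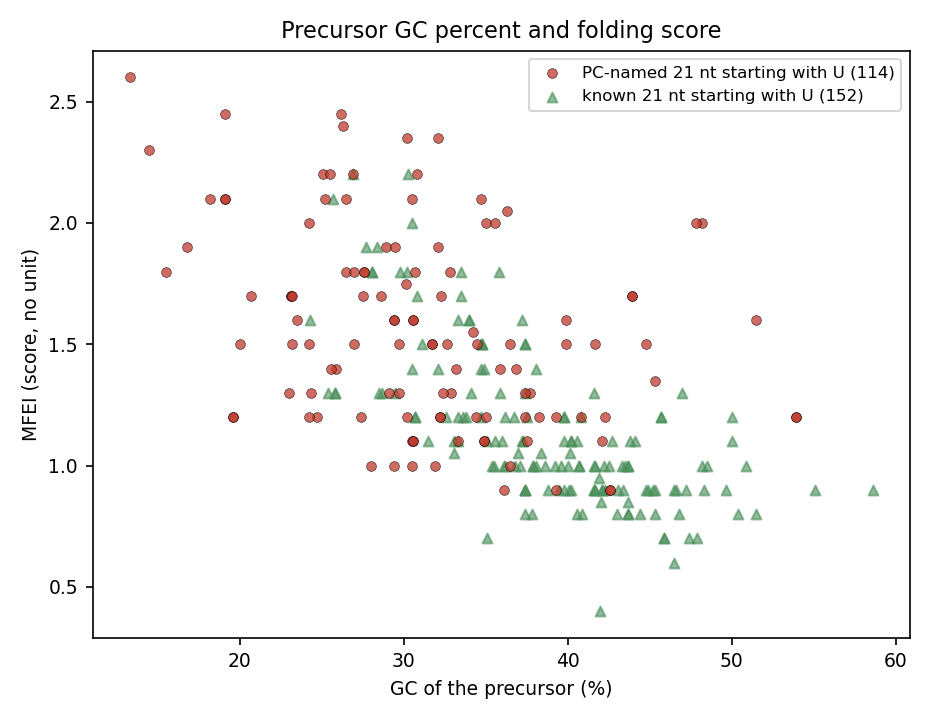
MFEI (vertical, no unit) against GC percent of the precursor (horizontal) for the 114 members (red circles) and for 152 known 21-nt miRNAs that start with U and have a folded precursor (green triangles). Members reach from 13.3% to 53.9% GC and none lies under an MFEI of 0.9.

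The medians of structure lay close together for called and uncalled members. Higher members had a median GC of 29.8% and MFEI of 1.5, lower members 32.9% and 1.3, and the members without a call 30.6% and 1.5. PC-3p-268_4596 and PC-5p-156972_12, which share a hairpin, were among the members at the lowest MFEI, 0.9, with 42.6% GC and -66.0 kcal/mol. PC-5p-27419_69 and PC-5p-91089_20 had the highest MFEI among members with at least 20 reads, at 2.45, with 26.2% and 19.1% GC. PC-5p-91089_20 was higher by at least 6.46-fold, with 20 reads in ‘Ant’ against 0 in ‘Mix’. PC-3p-108921_17 had the highest MFEI of all members, 2.6, and the lowest GC, 13.3%, when the median over the records of a name was taken. The record of PC-5p-91089_20 on chromosome A05 alone had an MFEI of 2.8.

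The mature sequences were also poor in GC, with a median of 33.3% for the members and 47.6% for the known 21-nt miRNAs that start with U. At position 2, U was found in 51.8% of members, in 32.9% of PC-named 21-nt miRNAs with another first base and in 38.6% of the known 21-nt sequences that start with U. At position 19, which lies opposite the first base of the other strand in a duplex with overhangs of 2 nt, A was found in 48.2% of members, in 38.4% of those with another first base and in 30.3% of the known sequences. C was found at position 19 in 16.7% of members and in 41.7% of the known sequences, where it was the most frequent base. At position 21, U was found in 36.0% and C in 31.6% of members.

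The 114 members have 133 precursor records. A single record was found for 95 members and 2 records for 19. In 15 of these 19, the records lie on opposite strands of the same place and overlap, as for PC-5p-46180_41 on chromosome A06, whose records overlap by 155 nt, and PC-5p-27419_69 on chromosome A01, whose records overlap by 95 nt. The strand from which the reads came cannot be told apart there. The other 4 have records on 2 chromosomes, such as PC-5p-91089_20 on A05 and A06. For 85 members every record held the sequence exactly, and 29 members differed from a precursor at 1 base. Of these, 24 differed at 1 base from every record listed for them, among them PC-5p-1815_688, PC-5p-1336_912 and PC-3p-108921_17. Members were found on all 10 chromosomes, with 22 on A09, 17 on A02, 15 on A06 and 6 each on A07 and A10. Fractional reads were listed for 40 members, and how reads were divided is not given in the sources used here.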

How the data were processed

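Small RNA of 1 ‘Ant’ and 1 ‘Mix’ library was used, and the mRNA, lncRNA and circRNA data were not analysed here. The authors trimmed adapters, removed common RNA families and mapped the reads to miRBase precursors and to the genome. The deposited reads are estimated counts, some with fractions. The deposited normalized signal equals the reads times a factor that the authors set for each library. Per the file headers, the other columns give the GC percent of each precursor, its folding energy in kcal/mol and the score MFEI. The methods give 1 µg of RNA per library and the labels 5 µg. The genome build of the precursor positions is not given in the sources used here, and no gene annotation was joined to them.

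The table was read with 1 entry per name, and values were rounded for the tests, which were run over all names with their summed normalized reads as totals. Log2 ratios have exact binomial (Clopper-Pearson) intervals and shares Wilson intervals, both on rounded reads. A floor of 3 reads was used for bounds against 0 reads, for medians over lists and for ranking, but not for single ratios with 1 to 3 reads. Arms were paired where the chromosome, strand, start and end of the precursor record were identical, and overhangs were read from the authors' folds. Named members were the 5 most read in each library, the 5 largest and 5 smallest log2 ratios among called members with at least 20 reads, the 3 most read of those at 0 in a library, the 3 most read pairs of arms, the 2 highest and 2 lowest MFEI among members with at least 20 reads and the most read member of each shared seed. The members, lists and rules were chosen with earlier results of these data known.

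The alternatives were each test alone, Benjamini-Hochberg adjustment, 4 other scalings, read minimums, distinct sequences, a log2 threshold of 2, pseudocounts of 1 and 10 reads, and edgeR's exact test on rounded reads at assumed coefficients of variation of 0.2 and 0.4. Python 3.11.15, pandas 2.3.3, numpy 2.4.6, statsmodels 0.14.6, scipy 1.17.1, matplotlib 3.10.9, RNAfold 2.7.2, R 4.3.3 and edgeR 4.0.16 were used.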

Additional observations from a re-analysis of the deposited data

How the results depend on the processing

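No paired analysis was possible because each group has 1 library, and for the same reason no library could be left out. The members called numbered 61, with 52 higher and 9 lower in ‘Ant’. With at least 10 reads in both libraries they numbered 21, with 15 higher and 6 lower, against 123 higher and 150 lower over all names, and fewer names could be tested there. Under the other alternatives the calls ranged between 43 and 63, with 36 to 54 higher and 7 to 9 lower. Over all names they ranged between 378 and 605, with 209 to 341 higher and 169 to 271 lower. At a coefficient of variation set to 0.4 in edgeR's exact test, 43 calls remained, 36 higher and 7 lower, against 209 and 169 over all names, and among the named members PC-3p-1165_1017 (exact test p = 0.131) and PC-5p-156972_12 (p = 0.0684) were no longer called. Median-of-ratios size factors moved all log2 ratios by -0.24 and TMM factors by -0.13. The median log2 ratio of the members was 0.99, and 0.75 to 1.04 under other scalings and a pseudocount. That of all names was -0.05, and -0.29 to 0.29 under the same settings. With at least 10 reads in the higher library the median of the members was 1.54. The share of reads held by the members was 0.325% in ‘Ant’ and 0.623% in ‘Mix’ with each distinct sequence counted once, and 0.0328% of the valid reads in ‘Ant’ and 0.0708% in ‘Mix’. No replicate error can be given, and members under 10 reads were rarely called.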
